A study of Bos taurus with 12 samples.

Results

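The 10 genes described here encode collagens, laminins and their partners in the basement membrane. They were taken by gene name from the mRNA expression table, which holds 33714 rows: COL4A1 and COL4A2 of collagen IV, the laminin chains LAMA2, LAMA4, LAMA5, LAMB1 and LAMC1, the nidogens NID1 and NID2, and HSPG2, which encodes perlecan. All 10 had 1 row each. The cells were preadipocytes, the precursors of fat cells, isolated from newborn Qinchuan cattle (longissimus dorsi) and grown in medium with 15% fetal bovine serum. At 90% confluence the culture was switched to a cocktail of IBMX (0.5 mM by the labels), dexamethasone and insulin (5 µg/mL by the labels) for 48 h, and then to insulin alone. The labels and the methods of the study give different doses of dexamethasone and insulin. RNA was taken before induction (0 d) and on 3 later days (3 d, 6 d and 9 d), and each day has 3 of the 12 libraries. The methods call the 3 cultures of a day biological replicates. The study describes the cells of its time points as the same batch. The number of animals behind the cultures is not given in the sources used here. The p-values therefore set differences between days against the spread between these libraries, which may not cover variation between animals. Expression is given as FPKM, fragments scaled by the length of the transcript and by the mapped reads of the library. Levels of different genes can thus be set side by side, as far as the transcript lengths and read assignments behind them hold. That was not tested here. The values have 2 decimals and do not give read numbers, so the depth behind a single value is unknown.

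A basement membrane is a thin sheet of extracellular matrix that lies against the surface of fat cells, muscle fibres, nerve sheaths, endothelium and epithelium. Laminins are trimers of an alpha, a beta and a gamma chain that polymerise on the cell surface through integrins and dystroglycan. Collagen IV forms a covalent network beside them, nidogens bridge laminin and collagen IV, and perlecan is a large proteoglycan that carries heparan sulfate. Fibroblast-like precursors of fat cells lie in an interstitial matrix, whereas each mature fat cell is wrapped in a basement membrane of its own.

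Markers of cell types were read first. The most abundant gene of a list is here and below the one with the highest mean over the 12 libraries, which need not lead on each day. Counts of genes called higher or lower than at 0 d stand beside those of all tested rows. Of these, 8.06%, 3.39% and 3.41% were higher and 15.2%, 7.97% and 7.47% lower at 3, 6 and 9 d. PDGFRA, a receptor of fibroblastic precursors, had a mean of 160 FPKM before induction, with libraries from 148 to 168. Its means were 930, 162 and 203 FPKM on the later days in turn, and it was called higher at 3 d (log2 fold change 2.54, adjusted p = 2.51e-10). COL3A1, the most abundant gene of the preadipocyte and fibroblast list, was at 102820 to 109333 FPKM at 0 d, and its means were 126606, 96303 and 170827 FPKM on the later days in turn, under the fold threshold each time. Of the 12 genes of this list that were tested, 5 were higher and 4 lower at 3 d than at 0 d, 4 higher and 2 lower at 6 d, and 3 higher and 1 lower at 9 d. The mean summed FPKM of the list was 119981 at 0 d and 172072, 132277 and 220485 at 3, 6 and 9 d, most of it COL3A1. The fatty acid carrier FABP4, the most abundant adipocyte marker by that mean, was at 3.30 ± 0.26 FPKM (SD, n = 3) at 0 d and at 91.1 ± 4.4, 26.4 ± 1.9 and 9.07 ± 1.6 FPKM on the later days in turn. The adipokine ADIPOQ never passed 1.64 FPKM in any of the 12 libraries. Of the adipocyte list, 10 of 12 genes were tested, and 7 were higher and 1 was lower at 3 d than at 0 d. The lower one, LEP (named after its values were seen), had means of 2.34, 0.0700, 8.02 and 20.5 FPKM over the 4 days and so was above FABP4 at 9 d. PLIN1 was not analysed here. The summed FPKM of that list was 13.2, 12.6 and 12.7 in the 0 d libraries, 144, 137 and 142 at 3 d, 50.4, 54.3 and 51.9 at 6 d, followed by 53.7, 43.6 and 55.5 at 9 d.

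Defining markers of endothelium were at or near 0: PECAM1 reached at most 0.03 FPKM and CDH5 0.12, while VWF lay between 1.56 and 2.58. The summed endothelial list stayed between 3.86 and 7.68 FPKM over the 12 libraries, and its most abundant gene over the 12 libraries, FLT1, was at 3.92 FPKM at 0 d and 0.357 at 3 d, where VWF was above it. The leukocyte marker PTPRC was listed at 0 in every library, and the Schwann cell marker SOX10 reached at most 0.01 FPKM. The blood and immune list summed to 2.28 to 4.27 FPKM, with CD14 as its most abundant gene over the 12 libraries (0.673 FPKM at 0 d and 2.40 at 3 d). The summed Schwann cell list was 127, 127 and 131 FPKM at 0 d, 22.9, 26.7 and 25.0 at 3 d, 33.8, 36.8 and 36.5 at 6 d, and finally 82.7, 79.0 and 92.0 at 9 d, of which PMP22, which many mesenchymal cells express, took 115 FPKM at 0 d and 11.2 at 3 d.

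Most of the muscle genes tested were present at 0 d and fell after induction. MYOD1, a transcription factor of the myogenic lineage, was at 268 ± 33 FPKM (SD, n = 3) at 0 d and at 109 ± 2.9, 47.7 ± 12 and 54.6 ± 10 at 3, 6 and 9 d, and MYOG was at 10.7 ± 0.43 FPKM at 0 d and at 4.10 ± 0.58 at 3 d. Of the 10 genes of the skeletal muscle and satellite cell list that were tested, 7 were lower at 3 d, 6 at 6 d and 7 at 9 d than at 0 d, and 0 were higher at any of these days. The list, led by DES, summed to 846, 887 and 970 FPKM at 0 d, 275, 301 and 298 at 3 d, 407, 389 and 431 at 6 d, and then 337, 303 and 334 at 9 d. PAX7 was not analysed here. The pericyte marker RGS5 was at 0 at 0 d and 3 d and reached at most 0.16 FPKM, whereas the smooth muscle myosin MYH11 was at 19.8 to 26.3 FPKM at 0 d and 51.2 to 60.6 at 3 d. The pericyte and smooth muscle list, led by ACTA2 in the mean over the 12 libraries, summed to 1951, 1977 and 2089 FPKM at 0 d, 656, 712 and 617 at 3 d, 1716, 1842 and 1818 at 6 d, followed by 786, 730 and 825 at 9 d. ACTA2 itself was at 1697, 26.8, 1583 and 598 FPKM on the 4 days, but the list did not move as one. Of its 8 tested genes, 3 were higher and 4 lower at 3 d than at 0 d, 2 higher and 2 lower at 6 d, and 1 higher and 3 lower at 9 d. The 3 that were higher at 3 d, named after their values were seen, were KCNJ8 (7.81 FPKM at 0 d and 485 at 3 d), ABCC9 (14.7 and 61.9) and MCAM (3.58 and 17.5). The part of these shifts in the results on the 10 genes was not tested. In RNA from whole cultures, fewer cells of a type and less RNA per cell cannot be told apart.

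Single libraries stood apart for some of the 10 genes. LAMC1 was at 565 FPKM in 0 d replicate 1 against 288 and 326 in the other 0 d libraries, and at 358 in 9 d replicate 2 against 634 and 628. NID1 was at 491 FPKM in 3 d replicate 2 against 341 and 369, and at 154 in 9 d replicate 2 against 217 and 220. COL4A2 was at 26.4 FPKM in 3 d replicate 1 against 39.0 and 37.1. Over the 11322 genes with a mean of at least 1 FPKM, the median deviation of these libraries from the others of their day was 0.01 (0 d replicate 1), 0.03 (3 d replicate 2), -0.03 (3 d replicate 1) and -0.04 (9 d replicate 2) on the log2 scale. Over the 10 genes it was -0.01, 0.06, -0.08 and -0.15 in the same order, and 9 d replicate 2 was the lowest library of its day for 9 of the 10. Likewise, 6 d replicate 3 was the lowest of its day for 8 of the 10 and 3 d replicate 1 for 7. Such counts over all genes are not given here. Fold changes of LAMC1, NID1 and COL4A2 are given below also without the libraries that stood apart for them, where they moved most. Whether the way reads were assigned to transcripts set these values apart cannot be seen from FPKM and was not tested.

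Together the 10 genes took up a larger share of the mRNA pool after induction. Their summed FPKM made up 0.345%, 0.338% and 0.314% of the FPKM of all mRNA rows in the 0 d libraries, 0.833%, 0.863% and 0.851% at 3 d, 0.768%, 0.770% and 0.738% at 6 d, and finally 0.463%, 0.407% and 0.447% at 9 d. The libraries of different days did not overlap in this share, and 3 d was highest. By the mean over the 12 libraries LAMA4 was the most abundant of the 10, with 3081 FPKM, which placed it at rank 40 of 32091 gene names. NID2 was at rank 91, and COL4A2 was the least abundant, at rank 4322. On its own, 3 d had NID2 above LAMA4 (means of 3527 and 2855 FPKM) in each library.

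**Figure D1:**
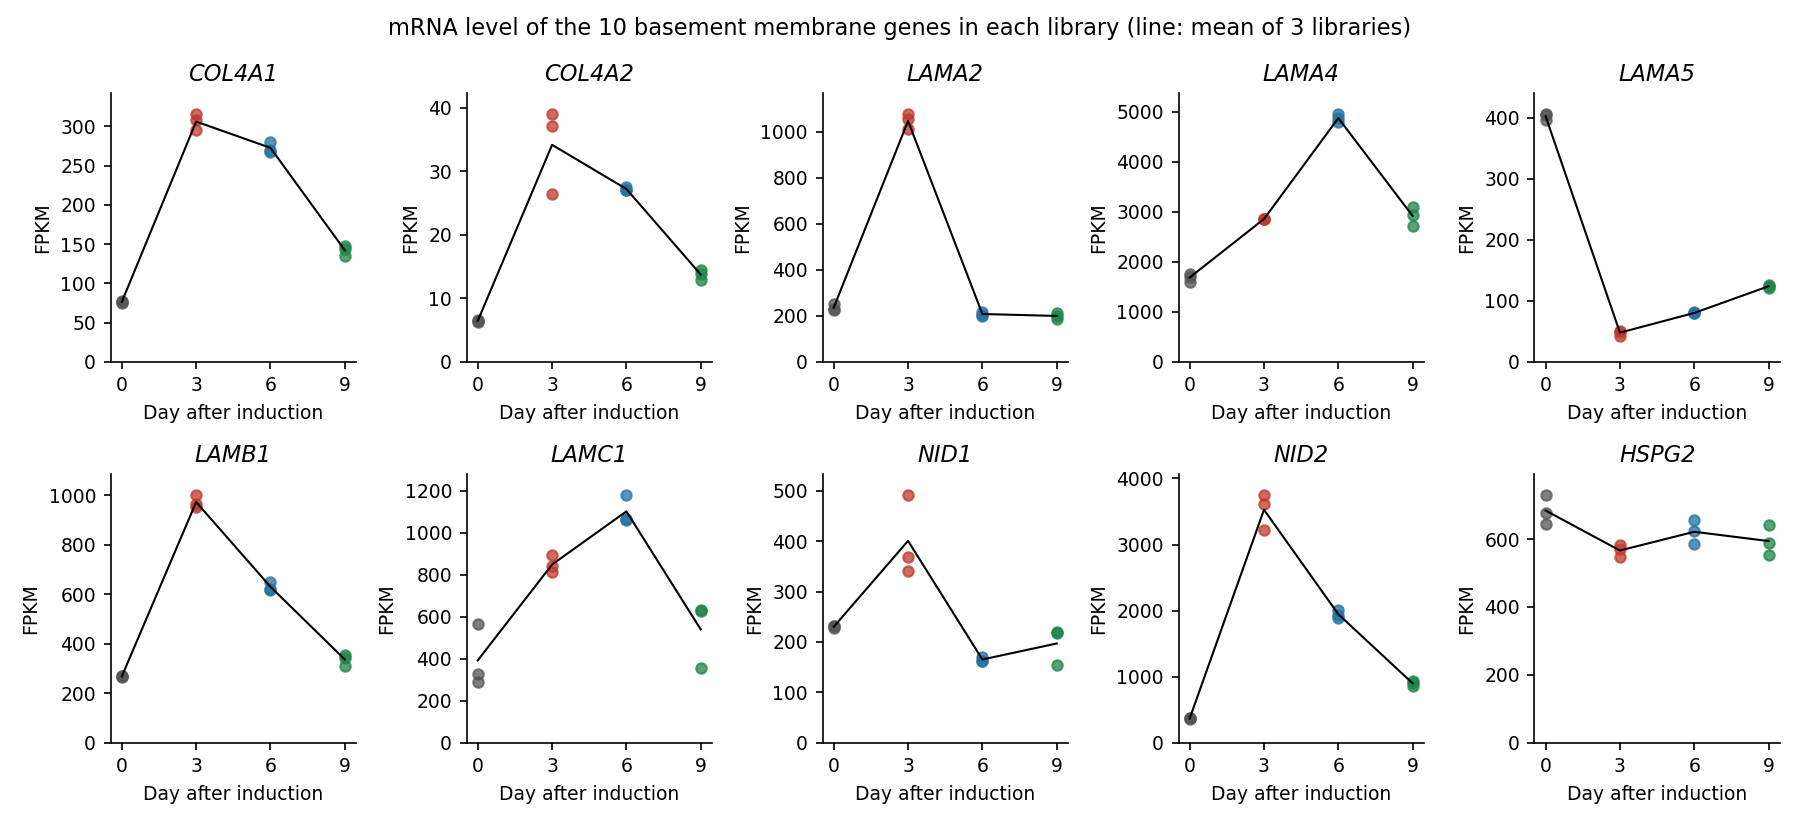
FPKM (linear axis from 0) of each of the 10 genes against the day after induction, with 1 point for each library and a line through the means of 3 libraries. COL4A1, COL4A2, LAMA2, LAMB1, NID1 and NID2 are highest at 3 d, LAMA4 and LAMC1 at 6 d, and LAMA5 and HSPG2 at 0 d.

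Differences between days were tested with limma on log2(FPKM + 0.1) over the 15401 mRNA rows with a mean of at least 0.1 FPKM, a filter that all 10 genes passed. A gene is called higher or lower when its Benjamini–Hochberg adjusted p over all these rows is under 0.05 and its absolute log2 fold change is over 1. At 3 d, 6 of the 10 were called higher than at 0 d (COL4A1, COL4A2, LAMA2, LAMB1, LAMC1 and NID2), against 8.06% of all rows, and 1 was called lower (LAMA5), against 15.2% of all rows. At 6 d the counts were again 6 higher (COL4A1, COL4A2, LAMA4, LAMB1, LAMC1 and NID2; 3.39% of all rows) and 1 lower (LAMA5; 7.97%). At 9 d they were 2 higher (COL4A2 and NID2; 3.41%) and 1 lower (LAMA5; 7.47%). The median log2 fold change of the 10 genes was 1.52, 1.38 and 0.40 at 3, 6 and 9 d, beside -0.06, -0.15 and -0.19 over all tested rows. With each library left out in turn, the median of the 10 genes lay between 1.42 and 1.66 for 3 d, between 1.295 and 1.395 for 6 d, and between 0.30 and 0.56 for 9 d. It was 0.55 at 9 d without 0 d replicate 1 and 0.56 without 9 d replicate 2. These comparisons share the 0 d libraries.

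Between successive days, 0 of the 10 were called higher at 6 d than at 3 d and 2 were called lower (LAMA2 and NID1), where 9.85% of all rows were higher and 9.23% lower. Of all 10 genes, 7 had an adjusted p under 0.05 in that comparison by limma without a minimum fold change, as did 49.5% of all rows. From 6 d to 9 d, 0 were called higher and 2 lower (LAMC1 and NID2), where 2.55% of all rows were higher and 1.89% lower, and 7 of the 10 had an adjusted p under 0.05, as did 20.7% of all rows. The median log2 fold change of the 10 genes was -0.24 from 3 d to 6 d and -0.82 from 6 d to 9 d, beside -0.09 and -0.04 over all tested rows.

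**Figure D2:**
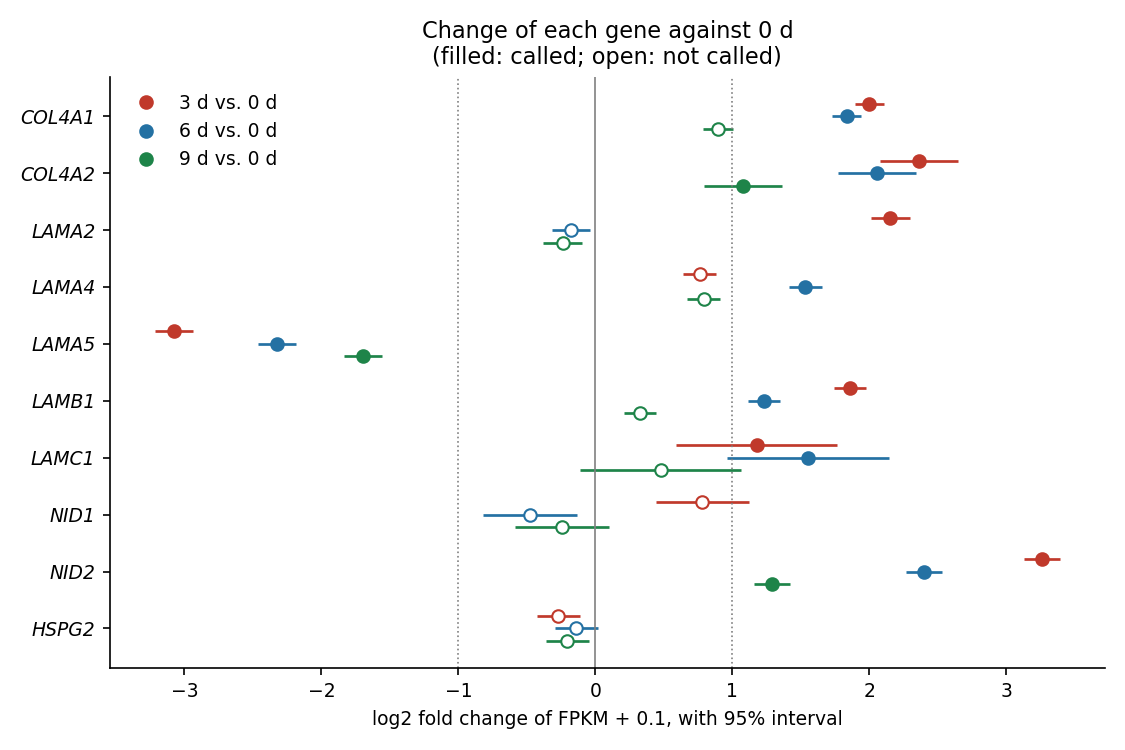
log2 fold change of FPKM + 0.1 (x axis) for each gene at 3, 6 and 9 d against the same 0 d libraries, with 95% intervals from limma; filled points were called, open points were not, and dotted lines mark a log2 fold change of 1 in each direction. LAMA5 lies at -3.07, -2.33 and -1.70, and NID2 at 3.26, 2.40 and 1.29.

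COL4A1 and COL4A2 lie next to each other in the genome and encode the chains of the most widespread form of collagen IV, the network of nearly every basement membrane. COL4A1 was at 75.9, 75.5 and 77.8 FPKM at 0 d, 295, 315 and 307 at 3 d, 270.2, 280 and 268 at 6 d, and then 148, 135 and 143 at 9 d. No libraries of different days overlapped, and the order was 3 d, 6 d, 9 d and 0 d from the highest. The rise was 4.0-fold at 3 d (log2 fold change 2.0, SE 0.05, adjusted p = 5.42e-10) and 3.56-fold at 6 d (adjusted p = 4.52e-09). At 9 d the log2 fold change was 0.89 (95% interval 0.79 to 1.00, adjusted p = 5.93e-07), under the fold threshold, and it was 1.07 after FPKM were rescaled between libraries by their median ratio.

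COL4A2 was at 6.28, 6.50 and 6.58 FPKM at 0 d, 26.4, 39.0 and 37.1 at 3 d, 27.5, 27.1 and 27.1 at 6 d, followed by 14.5, 12.9 and 13.8 at 9 d. Here the 3 d libraries surrounded those of 6 d, so these days do not differ beyond their spread, and both lay above 9 d and 9 d above 0 d. The log2 fold change was 2.37 (SE 0.13) at 3 d, 2.06 at 6 d and 1.08 (adjusted p = 0.000122) at 9 d. The 9 d value was 0.98, under the fold threshold, with a pseudocount of 1. Without 3 d replicate 1, the 3 d value was 2.54, and 6 d lay below 3 d (log2 fold change -0.48, adjusted p = 0.000414, under the fold threshold). From 6 d to 9 d the log2 fold change was -0.98 (adjusted p = 0.000466), and without 9 d replicate 1 it was -1.02 and called.

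In FPKM, COL4A1 was 8.09 to 12.1 times COL4A2 in the 12 libraries. Whether the way reads were assigned to transcripts set the size of this gap cannot be seen from FPKM and was not tested. The ratio of COL4A1 to COL4A2 was 11.8 ± 0.23 (SD, n = 3) at 0 d and then 9.19 ± 1.7, 10.0 ± 0.28 and 10.4 ± 0.18 on the later days in turn. The exact permutation test of the 4 days, which runs through every way to divide the 12 libraries among them, gave p = 0.0584 (one-sided, adjusted p = 0.0701 over 6 ratios), so a difference between days did not pass the threshold. It did without 3 d replicate 1 (exact permutation p = 0.00013, adjusted p = 0.000195).

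The alpha chains of laminin carry the sites that integrins and dystroglycan bind. LAMA2 encodes the alpha chain of the laminin around muscle fibres and Schwann cells. It was at 229, 252 and 225 FPKM at 0 d, 1053, 1077 and 1011 at 3 d, 217, 201 and 205 at 6 d, and finally 199, 187 and 213 at 9 d. The 3 d libraries stood above all others, 0 d lay just above 6 d and 9 d, and the libraries of 6 d and 9 d overlapped. LAMA2 rose 4.45-fold from 0 d to 3 d (log2 fold change 2.15, SE 0.06, adjusted p = 1.89e-09) and fell 5.04-fold from 3 d to 6 d (log2 fold change -2.33, adjusted p = 2.02e-09).

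LAMA4 encodes the alpha chain known from fat cells, blood vessels and other mesenchymal tissues. It was at 1696, 1763 and 1597 FPKM at 0 d, 2852, 2850.1 and 2862 at 3 d, 4875, 4950.2 and 4790 at 6 d, and then 3092, 2708 and 2943 at 9 d. The 6 d libraries were the highest and those of 0 d the lowest, while the 3 d libraries lay within the range of 9 d. The rise from 0 d to 6 d was 2.89-fold (log2 fold change 1.53, SE 0.05, adjusted p = 2.86e-08). At 3 d and 9 d the log2 fold changes were 0.76 (adjusted p = 1.02e-06) and 0.79 (adjusted p = 2.54e-06), under the fold threshold.

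LAMA5 encodes the alpha chain of many epithelial and vascular basement membranes. It was at 405, 406 and 396 FPKM at 0 d, 43.0, 51.1 and 49.4 at 3 d, 79.6, 81.1 and 79.7 at 6 d, followed by 126, 124 and 121 at 9 d. No libraries of different days overlapped, and the order was 0 d, 9 d, 6 d and 3 d from the highest. LAMA5 was 8.42-fold lower at 3 d than at 0 d (log2 fold change -3.07, SE 0.06, adjusted p = 1.76e-10), 5.02-fold lower at 6 d and 3.25-fold lower at 9 d (adjusted p = 4.91e-08). It was the only gene of the 10 called lower than at 0 d, and its calls at 3, 6 and 9 d were made with each library left out in turn.

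Among the 5 laminin alpha chains, LAMA4 held the largest share of the summed FPKM on every day. Its share was 63.8% ± 0.41 (SD, n = 3) at 0 d, went to 71.9% ± 0.63 and 94.1% ± 0.16 at 3 and 6 d, and was 89.2% ± 0.56 at 9 d. The share of LAMA2 was 8.91% ± 0.26 before induction and 26.4% ± 0.67 at 3 d, and then 4.02% ± 0.17 and 6.11% ± 0.32 at 6 and 9 d. LAMA5 went from 15.3% ± 0.47 at 0 d to 1.204% ± 0.11 at 3 d, and LAMA3, which is not among the 10 genes, from 11.95% ± 0.16 to 0.0667% ± 0.033. At 0 d, 4 chains thus each made up at least 8.65% of the total in every library, at 3 d LAMA4 and LAMA2 made up nearly all of it, and at 6 d LAMA4 alone passed 94.0% in each library.

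**Figure D3:**
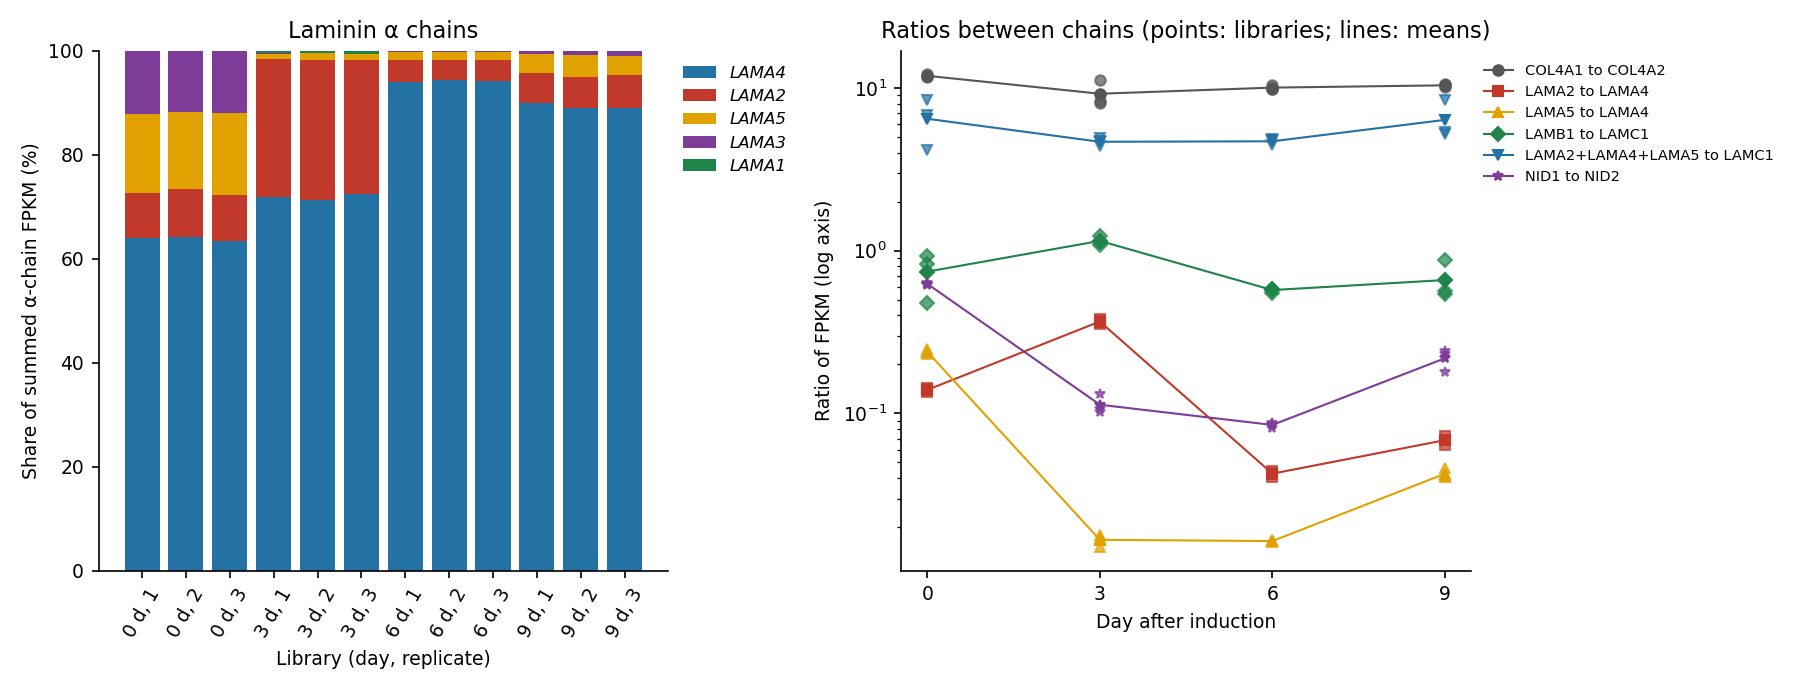
Left, share (%) of each laminin alpha chain in the summed FPKM of the 5 alpha chains, 1 bar for each library. Right, ratios of FPKM between chains on a log axis against the day, with 1 pale point for each library and darker points and lines for the means of 3 libraries; LAMA5 to LAMA4 lies near 0.239 at 0 d and near 0.0168 at 3 d.

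The ratio of LAMA2 to LAMA4 was 0.140 ± 0.0039 (SD, n = 3) at 0 d and 0.367 ± 0.013 at 3 d, and only 0.0427 ± 0.0019 and 0.0685 ± 0.0040 at 6 and 9 d. No libraries of different days overlapped in it, and its exact permutation p of 6.49e-05 (adjusted p = 0.000195) is the smallest the test can give. The ratio of LAMA5 to LAMA4 was 0.239 ± 0.0089 at 0 d, near one value at 3 d (0.0168 ± 0.0015) and 6 d (0.0165 ± 0.00017), and 0.0426 ± 0.0029 by 9 d (exact permutation p = 0.000584, adjusted p = 0.00117). Here 3 d and 6 d did not differ beyond their spread, since the 3 d libraries (0.0151 to 0.0179) surrounded those of 6 d. That overlap came from 3 d replicate 1 (0.0151), as the other 3 d libraries (0.0179 and 0.0172) lay above 6 d (0.0163 to 0.0166). Without 3 d replicate 1, the exact permutation p of the 4 days was 6.49e-05 (adjusted p = 0.00013).

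LAMB1 and LAMC1 encode the beta and the gamma chain that pair with most alpha chains. LAMB1 was at 269, 267 and 268 FPKM at 0 d, 951, 1000.03 and 966 at 3 d, 622, 651 and 617 at 6 d, and finally 344, 312 and 355 at 9 d. The days did not overlap, and 3 d was the highest and 0 d the lowest. LAMB1 rose 3.62-fold at 3 d (log2 fold change 1.86, SE 0.05, adjusted p = 1.42e-09) and 2.35-fold at 6 d, and its log2 fold change at 9 d was 0.33 (adjusted p = 0.000805), under the fold threshold.

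LAMC1, the gamma chain of nearly all mesenchymal laminins, was at 565, 288 and 326 FPKM at 0 d, 841, 812 and 894 at 3 d, 1067, 1180 and 1061 at 6 d, and then 634, 358 and 628 at 9 d. The libraries of 0 d and 9 d overlapped, and both lay below 3 d and 6 d. Its log2 fold change was 1.18 (SE 0.26, adjusted p = 0.00371) at 3 d, 1.55 (adjusted p = 0.00122) at 6 d and 0.48 (adjusted p = 0.194) at 9 d. Without 0 d replicate 1 these values were 1.47, 1.85 and 0.77, and without 0 d replicate 2 they were 0.98 (under the fold threshold), 1.36 and 0.28. Without 9 d replicate 2 the 9 d value was 0.75. The adjusted p at 9 d was 0.0262, 0.485 and 0.0395 in these 3 cases, and with each library left out in turn LAMC1 was called at 9 d in 0 of 12. LAMC1 fell 2.11-fold from 6 d to 9 d (log2 fold change -1.08, adjusted p = 0.0169). That call was lost without 9 d replicate 2 (log2 fold change -0.80, adjusted p = 0.0501) and without 6 d replicate 2 (-1.03, adjusted p = 0.0565).

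The ratio of LAMB1 to LAMC1 was 0.743 ± 0.24 (SD, n = 3) before induction and 1.15 ± 0.077, 0.572 ± 0.018 and 0.660 ± 0.18 on the later days in turn. LAMB1 exceeded LAMC1 in each 3 d library and in no library of another day. The days differed by the exact permutation test (p = 0.0234, adjusted p = 0.0352), but with 1 library left out the adjusted p stayed under 0.05 in 3 of 12 cases. The raw p then ranged from 0.00942 to 0.102. LAMA2, LAMA4 and LAMA5 summed were 4.13 to 8.44 times the level of LAMC1. A difference between days in that ratio did not pass the exact permutation test (p = 0.298, adjusted p = 0.298), whereas without 0 d replicate 1 p was 0.0378 (adjusted p = 0.0453).

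The 2 nidogens, glycoproteins that bind both laminin and collagen IV, went apart. NID2 was at 369, 370.3 and 365 FPKM at 0 d, 3225, 3748 and 3608 at 3 d, 1939, 2013 and 1886 at 6 d, followed by 936, 860 and 905 at 9 d. No libraries of different days overlapped, in the order 3 d, 6 d, 9 d and 0 d from the highest. Its rise of 9.56-fold at 3 d (log2 fold change 3.26, SE 0.06, adjusted p = 9.40e-11) was the largest of the 10 genes. At 6 d NID2 was 5.28-fold and at 9 d 2.44-fold above 0 d (adjusted p = 1.99e-07), and it fell 2.16-fold from 6 d to 9 d (adjusted p = 1.54e-06).

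NID1 was at 228, 231 and 231 FPKM at 0 d, 341, 491 and 369 at 3 d, 170.5, 163 and 162 at 6 d, and finally 217, 154 and 220.0 at 9 d. The 3 d libraries were the highest, and those of 6 d lay within the range of 9 d. No comparison with 0 d passed the fold threshold: the log2 fold changes were 0.78 (SE 0.15, adjusted p = 0.00161), -0.48 (adjusted p = 0.0353) and -0.24 (adjusted p = 0.253) at 3, 6 and 9 d. NID1 fell 2.39-fold from 3 d to 6 d (log2 fold change -1.26, adjusted p = 7.70e-05), and this log2 fold change lay between -1.37 and -1.10 with each library left out in turn. Without 9 d replicate 2, the value at 9 d against 0 d was -0.07, and without 3 d replicate 2 that at 3 d was 0.63.

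The ratio of NID1 to NID2 was 0.625 ± 0.0070 (SD, n = 3) before induction and 0.113 ± 0.016, 0.0850 ± 0.0036 and 0.218 ± 0.034 on the later days in turn. The days did not overlap, and here too the exact permutation p was 6.49e-05 (adjusted p = 0.000195), below which the test cannot go. It was the same with each library left out in turn. NID2 was thus 1.58 to 12.4 times as abundant as NID1 over the 12 libraries.

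HSPG2 encodes perlecan, which binds growth factors through its heparan sulfate chains. It was at 678, 729 and 645 FPKM at 0 d, 547, 582 and 570.5 at 3 d, 656, 624 and 584 at 6 d, and then 641, 552 and 590 at 9 d. Its highest and lowest day means differed 1.21-fold, the smallest span of the 10 genes, beside 9.58-fold for NID2. None of the 5 comparisons passed the fold threshold, and the log2 fold change against 0 d was -0.27 (95% interval -0.43 to -0.11) for 3 d, -0.14 (-0.29 to 0.02) for 6 d and -0.20 (-0.36 to -0.05) for 9 d.

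The remaining laminin and collagen IV chains were mostly low, apart from LAMA3 and LAMB2. Of 11 genes, 8 were tested, LAMB4 was not analysed here, and 1 was called higher and 3 lower at 3 d, 2 higher and 1 lower at 6 d, and 1 in each direction at 9 d. Over all tested rows, 8.06%, 3.39% and 3.41% were higher and 15.2%, 7.97% and 7.47% lower on these days. LAMA3, an alpha chain of epithelial anchoring laminins, was at 322, 325 and 300.1 FPKM at 0 d, 3.82, 2.94 and 1.2 at 3 d, 12.03, 12.2 and 10.9 at 6 d, followed by 21.0, 25.3 and 30.6 at 9 d. Its log2 fold change was -6.98 (SE 0.33, adjusted p = 5.76e-08) at 3 d, -4.74 at 6 d and -3.63 at 9 d, the largest fall of the list each time.

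LAMA1, an alpha chain best known from embryonic tissue, was at 1.38, 1.08 and 1.27 FPKM at 0 d and 19.6, 16.8 and 21.4 at 3 d (log2 fold change 3.85, adjusted p = 5.27e-07), and its highest level at 6 d and 9 d was 4.32. LAMB2, the most abundant chain of the list over the 12 libraries though below LAMA3 at 0 d, was at 274 ± 12 FPKM (SD, n = 3) at 0 d and 112 ± 9.1 at 3 d (log2 fold change -1.29, adjusted p = 1.43e-07), and at 238 ± 13 and 281 ± 8.8 at 6 d and 9 d, where it was not called. The beta chains LAMB1 and LAMB2 were thus at 268 and 274 FPKM at 0 d, whereas at 3 d they were at 972 and 112.

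Of 19 other basement membrane components, 13 were tested, and 2 were called higher and 5 lower at 3 d, 0 higher and 3 lower at 6 d, and 0 higher and 2 lower at 9 d. Over all tested rows, 8.06%, 3.39% and 3.41% were higher and 15.2%, 7.97% and 7.47% lower on these days. The median log2 fold changes of the 13 components were -0.41, -0.18 and 0.29. SPARC, a collagen-binding glycoprotein and the most abundant of them, was at 5925 ± 244 FPKM (SD, n = 3) at 0 d and between 4861 and 5629 in the later libraries, and was not called. The collagens XV and XVIII, which join basement membranes to the matrix around them, moved in opposite directions at 3 d. COL15A1 fell from 267, 270.0 and 273 FPKM at 0 d to 18.4, 19.6 and 19.0 at 3 d (log2 fold change -3.82, adjusted p = 3.31e-10) and was at 26.8 ± 2.5 and 72.2 ± 7.3 FPKM at 6 d and 9 d. COL18A1 rose from 33.4, 35.7 and 40.9 FPKM at 0 d to 123, 146 and 146 at 3 d (log2 fold change 1.91, adjusted p = 8.13e-08). It was at 42.0 ± 1.7 and 60.8 ± 3.9 FPKM at 6 d and 9 d (log2 fold changes 0.20 and 0.73), where it was not called. FRAS1, an adhesion protein under embryonic epithelium, was at 276, 320.3 and 268 FPKM at 0 d and 43.1, 43.8 and 26.2 at 9 d (log2 fold change -2.96, adjusted p = 1.78e-06).

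Enzymes and chaperones that fold, modify and export collagen numbered 15, of which 14 were tested. At 3 d 1 was called higher and 0 lower, at 6 d 5 higher and 0 lower, and at 9 d 2 higher and 0 lower, with median log2 fold changes of 0.02, 0.79 and 0.41. Over all tested rows, 8.06%, 3.39% and 3.41% were higher and 15.2%, 7.97% and 7.47% lower on these days. P4HA3, a catalytic subunit of the prolyl hydroxylase that stabilises the collagen helix, had the largest rise of the list on each day. It was at 7.80, 7.31 and 7.98 FPKM at 0 d, 161, 183 and 177 at 3 d, 101, 117 and 106 at 6 d, and then 39.7, 35.4 and 36.6 at 9 d, with log2 fold changes of 4.48 (SE 0.08, adjusted p = 7.72e-11), 3.79 and 2.26. P4HB, the partner subunit and the most abundant gene of the list, was at 1278 ± 80 FPKM (SD, n = 3) at 0 d and 2708 ± 99 at 6 d (log2 fold change 1.08, adjusted p = 2.38e-07).

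Receptors for laminin and collagen IV were lower more often than higher, as were all tested rows. Of 21 tested genes of 23, 1 was called higher and 10 lower at 3 d, 2 higher and 9 lower at 6 d, and 2 higher and 8 lower at 9 d. Of all tested rows, 8.06%, 3.39% and 3.41% were higher and 15.2%, 7.97% and 7.47% lower on these days. The receptors had median log2 fold changes of -0.97, -0.95 and -0.63 beside the -0.06, -0.15 and -0.19 of all tested rows. ITGA3, the integrin alpha chain that pairs with the beta chain ITGB1 to bind LAMA5 and LAMA3 laminins, was at 21.1, 17.7 and 28.9 FPKM at 0 d, 0.360, 0.460 and 0.500 at 3 d, 4.96, 5.40 and 4.66 at 6 d, followed by 6.67, 7.45 and 10.1 at 9 d. Its log2 fold change at 3 d was -5.37 (adjusted p = 1.03e-08), the largest fall of the list. At 6 d the largest fall was that of BCAM, a surface receptor for LAMA5 laminins, from 71.6 ± 5.0 FPKM (SD, n = 3) to 14.6 ± 1.5 (log2 fold change -2.29, adjusted p = 2.29e-07). At 9 d it was that of SGCA, a sarcoglycan of striated muscle, from 10.1 ± 1.7 to 2.08 ± 0.67 FPKM (log2 fold change -2.26, adjusted p = 6.10e-05). The list holds further genes of muscle, whose markers also fell, and the part of muscle cells in these falls was not tested.

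Among receptors that were higher, the collagen-binding integrin chain ITGA10 was at 0.657 ± 0.16 FPKM (SD, n = 3) at 0 d, 1.82 ± 0.12 at 3 d (log2 fold change 1.37, adjusted p = 3.30e-05) and 2.13 ± 0.072 FPKM at 6 d. The heparan sulfate proteoglycan SDC2 was at 17.5 ± 1.1 FPKM at 0 d and 39.2 ± 2.7 at 9 d (log2 fold change 1.16, adjusted p = 2.30e-06). SDC1, the most abundant receptor of the list, was at 1087, 696 and 1177 FPKM at 0 d, 375, 391 and 401 at 3 d, 1532, 1032 and 1484 at 6 d, and finally 2075, 2111 and 2064 at 9 d. It was lower at 3 d (log2 fold change -1.31, adjusted p = 0.000258) and higher at 9 d (1.11, adjusted p = 0.00141) than at 0 d. The 95% interval of the 9 d value was 0.68 to 1.55, which includes the fold threshold. Replicate 2 stood below the other libraries of its day at 0 d (696 FPKM) and 6 d (1032 FPKM). Fold changes of SDC1 without these libraries are not given here.

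Dystroglycan binds laminin through sugar chains that a series of enzymes builds. Of 16 genes for them, 14 were tested, 0 were called higher on any day by limma, and 1 was called lower, at 3 d. At an adjusted p under 0.05 without a minimum fold change, 4, 5 and 6 of the 14 passed at 3, 6 and 9 d, beside 52.2%, 34.8% and 36.8% of all tested rows.

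Enzymes of basement membrane turnover and their inhibitors moved in both directions. Of 17 genes, 11 were tested, and 1 was called higher and 4 lower at 3 d, 1 higher and 3 lower at 6 d, and 2 higher and 1 lower at 9 d, with median log2 fold changes of -0.30, -0.46 and -0.10. Over all tested rows, 8.06%, 3.39% and 3.41% were higher and 15.2%, 7.97% and 7.47% lower on these days. The gelatinase MMP2, which cleaves collagen IV, was at 891, 902 and 942 FPKM at 0 d, 3173, 3677 and 3406 at 3 d, 2142, 2094 and 2049 at 6 d, and then 2470.5, 2310 and 2388 at 9 d. Its log2 fold change was 1.90 (SE 0.06, adjusted p = 1.79e-09) at 3 d, 1.2 at 6 d and 1.39 at 9 d. TIMP3, an inhibitor that is bound to the matrix, was at 138, 105 and 137 FPKM at 0 d, 2.87, 2.48 and 2.41 at 3 d, 77.7, 29.2 and 89.3 at 6 d, followed by 59.2, 46.1 and 52.7 at 9 d (log2 fold change -5.55 at 3 d, adjusted p = 4.49e-07). CTSL, a lysosomal protease, was at 2.33 ± 0.24 FPKM (SD, n = 3) at 0 d and 0.340 ± 0.070 at 6 d (log2 fold change -2.47). TIMP1 rose to 2087 ± 112 FPKM at 9 d from 752 ± 25 at 0 d (log2 fold change 1.47, adjusted p = 4.61e-07), and TIMP2, the most abundant of the list, was at 7495 ± 440 FPKM at 0 d and 14133 ± 468 at 3 d (log2 fold change 0.92, adjusted p = 9.29e-08), under the fold threshold.

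**Figure D4:**
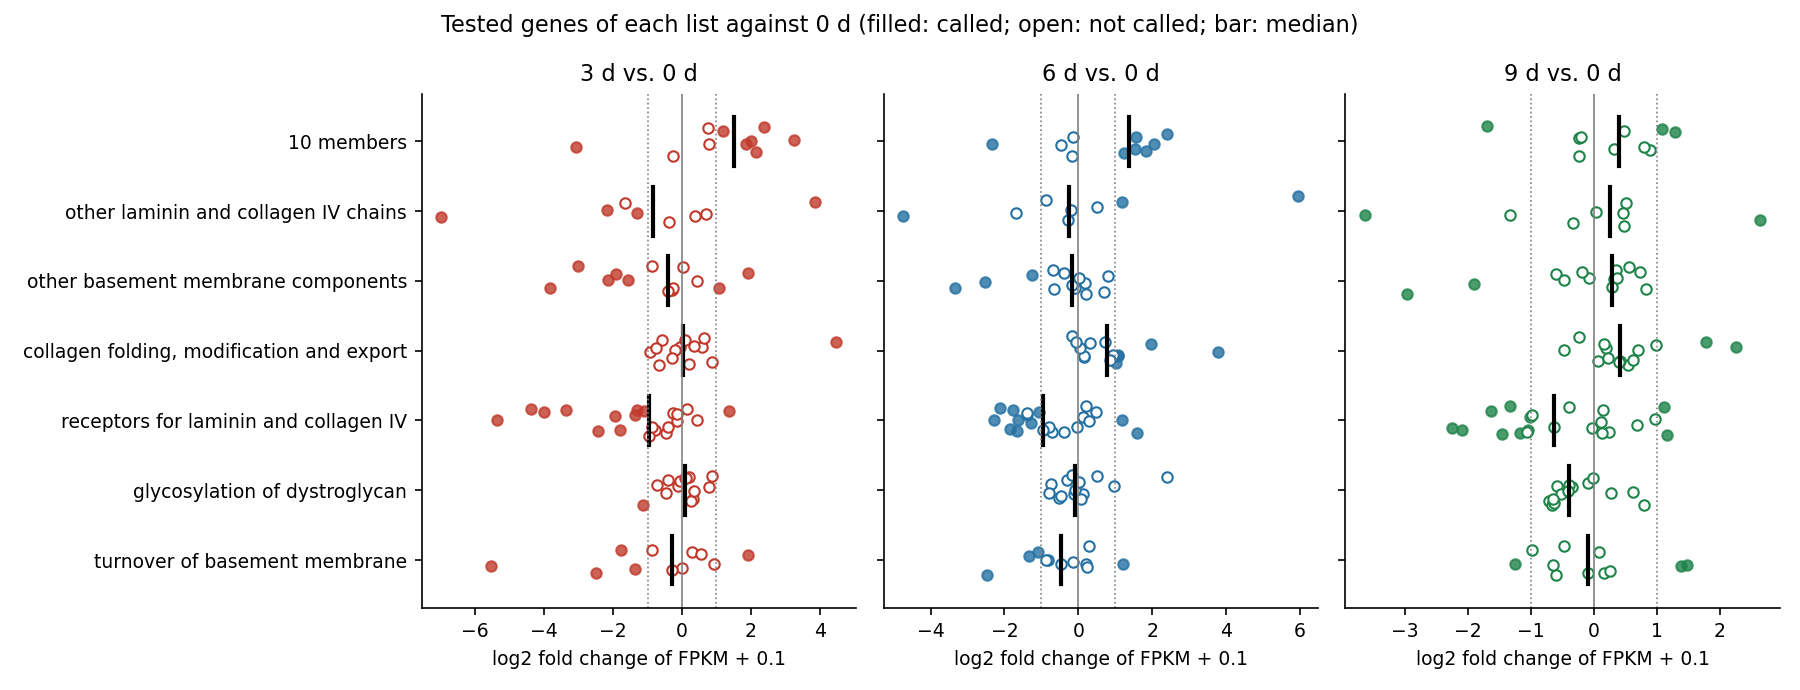
log2 fold change of FPKM + 0.1 (x axis) at 3, 6 and 9 d against 0 d for the tested genes of each list (rows), 1 point for each gene, filled where called and open where not; the black bar is the median of the list and dotted lines mark a log2 fold change of 1, and the x axes of the days differ in range. The median of the 10 genes lies at 1.52, 1.38 and 0.40, and that of the receptors at -0.97, -0.95 and -0.63.

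Genes with the most similar course were sought by Pearson r of log2(FPKM + 0.1) over the 12 libraries among 10203 named genes with a mean of at least 1 FPKM. The libraries fall into 4 days, so r describes the order of days more than 12 separate points. For COL4A1 the closest were PTX3, a secreted pentraxin that binds matrix (r = 0.996), P4HA3 (r = 0.994) and PGM5 (r = 0.992). PTX3 was at 10.7 FPKM at 0 d and 1255, 1301 and 110 at 3, 6 and 9 d, and PGM5 at 6.97 FPKM and then 96.6, 78.9 and 16.9. For LAMA4 they were MAP3K13 (r = 0.985), P4HB (r = 0.983) and the metalloprotease ADAM19 (r = 0.982), which was at 145 FPKM at 0 d and 266, 420 and 293 at 3, 6 and 9 d. For NID1 they were TUBGCP6 (r = 0.9748), ZNF503 (r = 0.972) and STOM (r = 0.968), with STOM at 1982 FPKM at 0 d and 2472, 1787 and 1885 later. For LAMC1, whose libraries spread most, the values were lower: MCFD2 (r = 0.925), COTL1 (r = 0.902) and NDEL1 (r = 0.898).

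Some transcripts of these genes are also joined backwards into circular RNAs (circRNAs), which the study counted as reads over back-splice junctions. The libraries held 5358 to 10729 back-spliced reads each and 95674 in all. Of these, 520 reads (0.544%) in 98 circRNA rows came from 7 of the 10 genes, and 51 of the rows had 1 read. COL4A1, COL4A2 and LAMA5 were not named as host of any row.

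LAMA2 gave 191 of these reads, more than any other host, and NID2 gave 153. LAMA2 circRNAs together had 7, 8 and 14 reads at 0 d, 22, 44 and 38 at 3 d, 7, 8 and 14 at 6 d, and finally 15, 7 and 7 at 9 d. Per 10000 back-spliced reads this was 13.3 (exact 95% Poisson interval 8.90 to 19.1) before induction and 43.2 (35.3 to 52.4), 14.8 (9.88 to 21.2) and 9.62 (6.44 to 13.8) on the later days in turn. LAMA2 mRNA was at 235, 1047, 208 and 199 FPKM on these days. NID2 circRNAs had 0, 3 and 6 reads at 0 d, 23, 25 and 28 at 3 d, 12, 13 and 20 at 6 d, and then 5, 9 and 9 at 9 d, which is 4.13 (1.89 to 7.83), 31.6 (24.9 to 39.5), 22.9 (16.7 to 30.6) and 7.63 (4.84 to 11.5) per 10000. For both genes the 3 d libraries were above all 0 d libraries. The intervals cover counting error only.

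The other hosts gave few reads. LAMB1 had 0 reads at 0 d (upper limit 1.69 per 10000), 17 at 3 d, 6 at 6 d and 2 at 9 d, while LAMC1 had 1, 0, 8 and 18 on these days. LAMA4, whose mRNA was the most abundant over the 12 libraries, had 5, 14, 11 and 15 reads, NID1 6, 11, 4 and 12, and HSPG2 7, 11, 9 and 19.

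**Figure D5:**
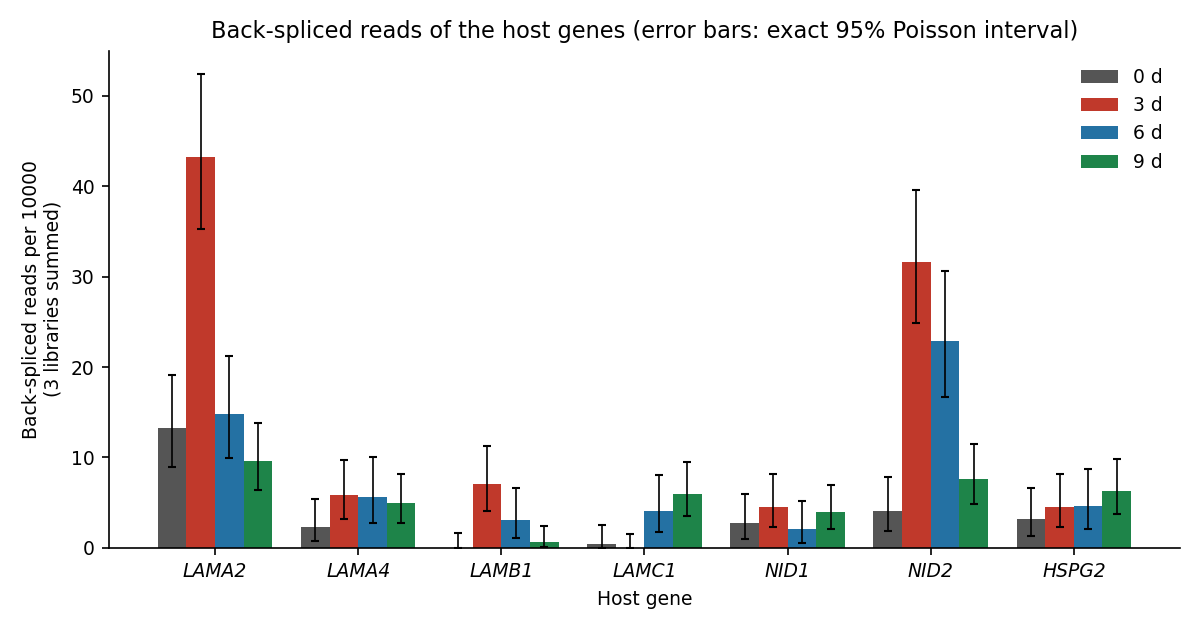
Back-spliced reads of each host gene per 10000 back-spliced reads of the day (linear axis from 0), the 3 libraries of a day summed, with exact 95% Poisson intervals as error bars. LAMA2 stands at 43.2 and NID2 at 31.6 at 3 d, above their values at 0 d, 13.3 and 4.13.

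Single circRNAs were tested with edgeR where they had at least 5 reads over the 12 libraries, which left 17 circRNAs of these hosts among 2828. At 3, 6 and 9 d against 0 d, edgeR called 0 of the 17, beside 0.813%, 0.53% and 0.566% of all tested circRNAs, and at an unadjusted p under 0.05 there were 3, 2 and 1, beside 6.26%, 4.88% and 6.33% of all tested circRNAs. DESeq2 also called 0 of the 17, with 2, 1 and 0 at an unadjusted p under 0.05, beside 0.778%, 0.601% and 0.53% of all. The lowest adjusted p at 3 d by edgeR was 0.221, for circRNA2229 of NID2 (7 exons, chromosome 10, 44904976 to 44928976 on the minus strand, as the file gives it on ARS-UCD1.2). It had 0, 1 and 0 reads at 0 d, 9, 12 and 3 at 3 d, 2, 2 and 6 at 6 d, followed by 0, 5 and 2 at 9 d. circRNA2228 shares its lower end and spans 4 exons (44904976 to 44908936), and it had 0, 2 and 1 reads at 0 d and 7, 8 and 12 at 3 d (adjusted p = 0.388). The most abundant was circRNA1409 of LAMA2, a single exon (chromosome 9, 67207986 to 67208228 on the plus strand) with 107 reads, of which 23, 48, 14 and 22 fell on 0, 3, 6 and 9 d. These circRNAs were chosen after their values were seen.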

How the data were processed

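The sample labels gave the day and replicate of the 12 libraries. For mRNAs the authors mapped reads to the bovine genome ARS-UCD1.2 and deposited FPKM; the submitters' processing notes name HISAT2 2.0, StringTie 1.3.0 and Bowtie 0.12.2, and list a mouse build that the methods do not name. The labels describe poly(A) selection and the methods rRNA depletion. For circRNAs the authors deposited a count of back-spliced reads per library, called with CIRCExplorer2 and CIRI. Another 12 columns of scaled circRNA values were left unused, and lncRNA and miRNA tables were not used.

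FPKM were not remapped or turned into counts. The study names edgeR for its own tests; since FPKM are not counts, limma 3.58.1 (lmFit, contrasts.fit, eBayes with a trend, not robust) was fitted to log2(FPKM + 0.1), so a fold change of a low gene is understated. The 12 libraries entered 1 model with a coefficient for each day. CircRNA counts were fitted with edgeR 4.0.16 (TMM, glmQLFit, glmQLFTest) and, as an alternative, DESeq2 1.42.0. The 6 ratios of FPKM were tested with an exact one-sided permutation test on the between-day sum of squares of the log2 ratio, adjusted over 6. Tests were checked on simulated data, but the outcome is not given here. R 4.3.3, Python 3.11.15, NumPy 2.4.6, pandas 2.3.3, SciPy 1.17.1 and Matplotlib 3.10.9 were used.

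The genes and the gene lists were chosen with earlier results of these data known. Named are the 10 genes; from each list, the called genes with the largest rise and fall at 3, 6 and 9 d against 0 d and the most abundant gene; from each marker list, the most abundant gene and the defining markers; and for COL4A1, LAMC1, LAMA4 and NID1 the 3 genes of highest Pearson r. Some genes that this rule names are not reported here. Chromosome names of circRNAs come from where RefSeq places their host genes, as does the neighbourhood of COL4A1 and COL4A2. The alternatives were a pseudocount of 1 or 0.01 (for ratios 0.1 or 1), a filter at a mean of 1 FPKM or none, rescaling of FPKM by their median ratio, only the 6 libraries compared, only the induced days for ratios, a block for the replicate number, no minimum fold change, rows of 1 gene name summed, no filter on circRNA counts, DESeq2 and leaving out each library in turn.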

Additional observations from a re-analysis of the deposited data

How the results depend on the processing

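The counts of genes called at 3 d (7) and 6 d (7) against 0 d stayed between 6 and 10 under every alternative. Without a minimum fold change, 8 were called at 9 d vs. 0 d (3 with it), 7 at 6 d vs. 3 d (2 with it) and 7 at 9 d vs. 6 d (2 with it), since that setting drops the fold threshold; of all rows, 36.8%, 49.5% and 20.7% passed it. With each library left out in turn, the count at 9 d vs. 6 d lay between 1 and 3. Of 1000 log2 fold changes of the 10 genes under alternatives, 994 kept their direction and side of the threshold, 4 lost the call, 2 gained it and 0 turned. The ratio of LAMB1 to LAMC1 had p from 0.00942 to 0.102 with each library left out, that of COL4A1 to COL4A2 from 0.00013 to 0.125, and that of LAMA2 plus LAMA4 plus LAMA5 to LAMC1 from 0.0378 to 0.395; the last had p = 0.0286 over 3, 6 and 9 d only (exact permutation tests). Beyond the smaller number of libraries, the cause was not tested.

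Rescaling FPKM by median ratio moved the median log2 fold change of all rows by 0.08, 0.13 and 0.16 at 3, 6 and 9 d vs. 0 d, and the share of calls that were higher from 31.3% to 44.1% at 9 d. With a pseudocount of 1, calls over all rows went from 3585 to 2184, 1749 to 967, 1675 to 888, 2939 to 1688 and 683 to 368 in the 5 comparisons, and with a mean FPKM of at least 1 from 1675 to 1114 at 9 d vs. 0 d. DESeq2 called 0 circRNAs of 2828 in each comparison, where edgeR called 23, 15 and 16; leaving out 1 library gave 10 to 23, 9 to 16 and 11 to 17.

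Replicate numbers gave no clear pairing of the libraries: 0 of 18 same-number correlations passed 0.1 (-0.08 to 0.09). The median correlation was 0.02 for same-number pairs and -0.01 for other pairs, and 6 of 12 libraries were closest to their own number. This check cannot exclude a weak pairing. With a replicate block, 7, 7 and 3 of the 10 genes were called at 3, 6 and 9 d vs. 0 d and 0 of their circRNAs, and circRNA calls at 6 d went from 15 to 9 over all rows.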
